A study of Mus musculus with 6 samples.

Results

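The signal transducers and activators of transcription (STATs) and the Janus kinases (JAKs) were examined in RENCA cells, an established mouse renal adenocarcinoma line. The members were the 9 genes Stat2, Stat3, Stat4, Stat5a, Stat5b, Stat6, Jak1, Jak2 and Tyk2, matched by gene name among the 78298 genes of the deposited table. Other members of either family are not analysed here. Cells carried a lentivirus with the mouse Aqp1 coding sequence under the ubiquitin C promoter (oe-AQP1, 3 samples) or the same vector without an insert (oe-NC, 3 samples). Puromycin at 2 μg/mL was applied to both groups for 14 days of selection, so vector, resistance cassette and selection were common to all 6 samples. No untransduced RENCA cells were part of the comparison, all samples bore the same batch label, and nothing in the labels says that the 3 samples of a group came from separate transductions. P-values therefore measure the spread between these samples, part of which may be technical.

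Janus kinases are tyrosine kinases bound to the inner side of cytokine receptor chains. Ligand binding brings the chains together, the kinases phosphorylate each other and the receptor, and STAT proteins that dock there are phosphorylated, pair up and enter the nucleus as transcription factors. JAK1 and TYK2 serve the type I interferon receptor, and STAT2 joins IRF9 in ISGF3, the complex that binds interferon-stimulated response elements (ISREs). STAT3 carries signals of the IL-6 family, STAT4 those of IL-12 in lymphocytes, STAT5A and STAT5B those of growth hormone, prolactin and several interleukins, and STAT6 those of IL-4 and IL-13. Activity of these proteins depends on phosphorylation, which RNA counts do not measure.

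Of the 9 genes, Stat2 was the member with a large difference. Its mRNA was 3.91-fold higher in oe-AQP1 than in oe-NC cells, while Stat6 fell by 13.3% and Jak1 fell by 7.54%. Stat3, Stat5a, Stat5b, Jak2 and Tyk2 did not pass the threshold, and Stat4 was at most at 7 counts in any sample and was not tested. In all, 1 member was higher and 2 were lower among the 8 tested, where 16.0% of all 15522 genes tested were higher and 16.6% lower. Here passing means an FDR under 0.05, the FDR being the Benjamini-Hochberg adjusted p-value of limma-voom over all genes tested, and log2FC is positive where a gene was higher in oe-AQP1 cells. A differentially expressed gene (DEG) also had an absolute log2FC above 1. Stat2 was the only DEG among the 8 members tested, against 5.23% of all genes tested (4.39% higher and 0.844% lower).

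The 6 samples held 18385714.02 to 21920898.67 expected counts, estimated read counts that need not be whole. Aqp1 was at 7713, 8545 and 7838 counts in oe-AQP1 samples and at 41, 25 and 45 counts in oe-NC samples, in the direction of the labels. The oe-NC replicate 1 stood apart from the other oe-NC samples. Its counts differed from theirs by a chi-square of 9.54 and 11.1 per gene, whereas the other same-group pairs gave 1.71 to 2.04 and sampling noise alone gives about 1. The renal and epithelial markers summed to 799 to 831 CPM (counts scaled to library size) in oe-AQP1 and 983 to 1087 CPM in oe-NC samples. Of the 7 tested, 5 were lower in oe-AQP1 cells and 2 did not pass, where 16.6% of all genes tested were lower. Epcam had no count in any sample. Of the markers of other cell types, the macrophage list summed to 47.7 to 51.0 against 55.7 to 58.8 CPM with Adgre1 and Tyrobp at 0, the lymphocyte list to at most 1.60 CPM, the endothelial list to at most 1.73 CPM with Kdr at 0, and the fibroblast list to 56.6 to 58.8 against 51.6 to 65.7 CPM. Of the 3 macrophage markers tested, Csf1r (log2FC -1.51) and Lyz2 (-0.52) were lower in oe-AQP1 cells, and of the 3 fibroblast markers tested Col1a1 was lower (-0.73) and Pdgfrb higher (0.34). Most markers of other cell types were near 0. At most 3 counts in every sample were found for 5 of 8 macrophage and 6 of 8 lymphocyte markers. The same held for 3 of 6 fibroblast and 3 of 4 endothelial markers. The part of the markers in the results was not tested, and in such bulk samples fewer cells of a type and less RNA per cell cannot be told apart.

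The promoter of Stat2 is shown first because it holds an ISRE core, the sequence that the complex of STAT2 itself is known to bind. Promoter windows of 250 bases before to 50 bases after each start site were taken from RefSeq on GRCm38.p6, which held 12 windows for all 9 members. They were searched on both strands for the ISRE core (GAAA, any 2 bases, GAAA), the gamma-activated site or GAS (TTC, any 3 bases, GAA) and a wider-spaced element that STAT6 is known to bind (TTC, any 4 bases, GAA). The stretch before the Stat2 start site, on the plus strand at chr10:128270248-128270497, reads as follows, the first run of capitals being the ISRE core as read on the other strand and the second the wider-spaced element.
Stat2: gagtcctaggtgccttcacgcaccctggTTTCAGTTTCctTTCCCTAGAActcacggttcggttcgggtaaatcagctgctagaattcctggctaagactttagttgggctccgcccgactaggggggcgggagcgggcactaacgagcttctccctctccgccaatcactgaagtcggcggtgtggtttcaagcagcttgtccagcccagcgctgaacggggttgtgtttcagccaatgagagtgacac

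The ISRE core lay at -222 to -213 and the wider-spaced element at -210 to -201 from the Stat2 start site, without overlap. Of the other members, only 1 of the windows of Stat4 held an ISRE core, at -97 to -88, and no member window held a GAS element. For comparison with Stat2, 50 bases around the core are given for Stat4 (chr1:52008123-52008172, plus strand) and for Socs1, a feedback inhibitor of the Janus kinases (chr16:10785590-10785639, minus strand), whose capitals cover 2 overlapping cores.
Stat4: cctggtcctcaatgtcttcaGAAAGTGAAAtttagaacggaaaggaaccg
Socs1: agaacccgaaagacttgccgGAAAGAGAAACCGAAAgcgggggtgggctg

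Across all 32851 promoter windows of this length, 3.44% held the ISRE core, 8.30% the GAS element and 6.95% the wider-spaced element. Counted by gene, 3.99% of 27025 genes had an ISRE core in a window. These matches describe letters in a window and not binding.

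Stat2, on GRCm39 at chr10:128106352-128128735 (plus strand), reached 8832, 10019 and 9049 counts in oe-AQP1 samples and 2326, 2059 and 2396 counts in oe-NC samples. After scaling, these were 447, 456 and 440.1 CPM against 119, 113 and 112 CPM. The lowest oe-AQP1 sample lay far above the highest oe-NC sample, and samples within a group differed little. All oe-AQP1 samples lay above all oe-NC samples in 23.5% of all genes tested. Levels averaged 447 ± 7.79 CPM (SD, n = 3) in oe-AQP1 and 115 ± 3.45 CPM in oe-NC cells. The log2FC was 1.97 (SE 0.04, 95% confidence interval 1.88 to 2.05, limma-voom FDR = 8.79e-11), a fold of 3.91 with an interval of 3.69 to 4.14. By log2FC, Stat2 took rank 266 of the genes tested, so that 1.71% of them had a larger value. Its counts were whole numbers, and its coding sequence shared no stretch of 50 bases with another STAT member.

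**Figure D1:**
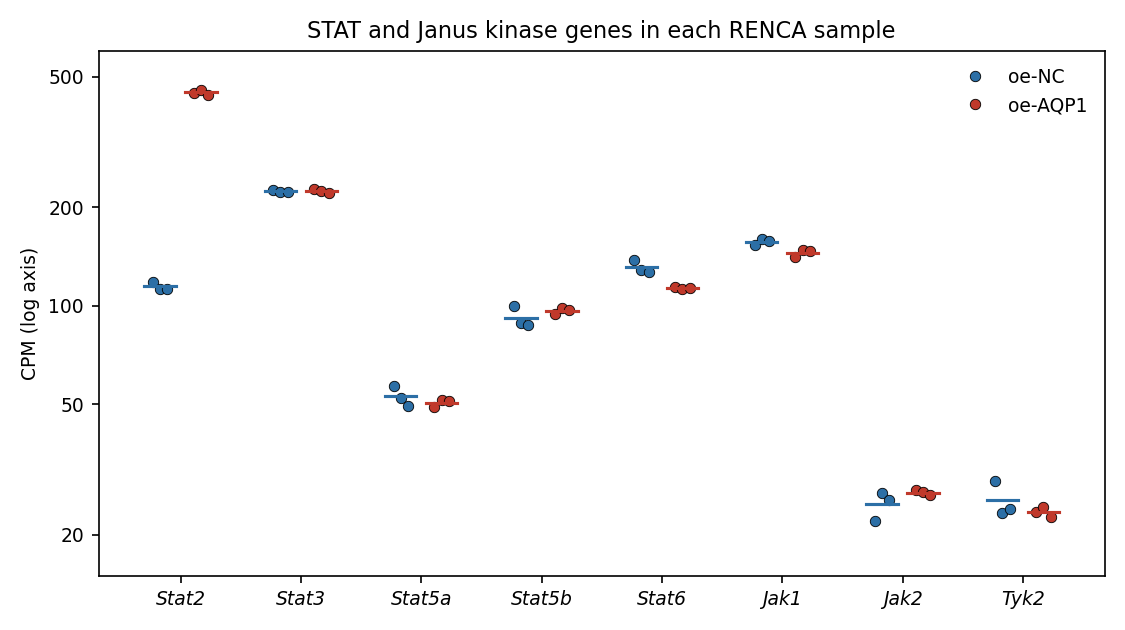
Each point is 1 sample, with the CPM of a gene on a log axis for the 8 members tested, and lines mark the mean of the 3 samples of a group (oe-NC blue, oe-AQP1 red). Stat2 lies near 447 CPM in oe-AQP1 and 115 CPM in oe-NC samples, while the points of the 2 groups lie close together or overlap for the other genes. Stat4 is not drawn.

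Stat3 is the STAT of the IL-6 family and lies at chr11:100775924-100830450 (minus strand). It was found at 227, 224 and 220.0 CPM in oe-AQP1 samples and at 226, 222 and 222 CPM in oe-NC samples. The groups overlapped throughout. The log2FC was 0.00 (SE 0.03, 95% interval -0.07 to 0.08, limma-voom FDR = 0.953), so the interval left room for a change of -4.95% to 5.69%. Among all genes tested, 98.99% had a larger absolute log2FC than Stat3.

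Stat6 transmits IL-4 and IL-13 signals and lies at chr10:127477821-127496862 (plus strand). In oe-AQP1 samples it measured 114, 113 and 114 CPM, and in oe-NC samples 138, 128 and 127 CPM. All oe-AQP1 samples lay below all oe-NC samples, a separation that 23.8% of all genes tested showed in this direction. The highest oe-NC value was that of replicate 1. Stat6 fell to 113 ± 0.584 CPM from 131 ± 6.11 CPM (SD, n = 3), with a log2FC of -0.21 (SE 0.04, 95% interval -0.30 to -0.11, limma-voom FDR = 0.00501). Without oe-NC replicate 1 the log2FC was -0.17 (FDR = 0.000113). More of all genes tested were also called lower without that sample, 3331 against 2569.

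Stat5a and Stat5b are neighboring genes on chromosome 11, at chr11:100750177-100776065 (plus strand) and chr11:100671556-100741589 (minus strand), whose proteins serve growth hormone, prolactin and interleukin receptors. The levels of Stat5a were 49.0, 51.6 and 51.1 CPM in oe-AQP1 against 56.8, 52.1 and 49.6 CPM in oe-NC samples. Its groups overlapped, with a log2FC of -0.06 (95% interval -0.19 to 0.07, limma-voom FDR = 0.471), and the log2FC was -0.0051 without oe-NC replicate 1, the sample with the highest value. Stat5b measured 94.4, 98.5 and 97.0 CPM in oe-AQP1 against 99.96, 88.8 and 87.4 CPM in oe-NC samples. Here oe-NC replicate 1 alone lay above the oe-AQP1 samples, and both other oe-NC samples lay below them. The log2FC of Stat5b was 0.07 (95% interval -0.05 to 0.20, limma-voom FDR = 0.343). Without oe-NC replicate 1 it was 0.13 (FDR = 0.00382), and Stat5b then passed the threshold. More of all genes tested were also called higher without that sample, 3125 against 2481.

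The coding sequences of Stat5a and Stat5b were 88.8% identical over 2379 and 2358 bases, and 612 stretches of 50 bases occurred in both, 6.96% of those in Stat5a and 7.45% of those in Stat5b. Every other pair of STAT members and every pair of JAK members shared none, with identities of 46.9% to 58.7%. Expected counts of Stat5a and Stat5b were fractional in all 6 samples, and their split between the genes is therefore less certain than the count of a member such as Stat2. Those of Stat3 were fractional in 5 samples, although Stat3 shared no such stretch with another member. Summed into a single gene, Stat5a and Stat5b gave a log2FC of 0.026 (FDR = 0.747). The count ratio of Stat5b to Stat5a within a sample needs no scaling between samples. It was 1.93, 1.91 and 1.90 in oe-AQP1 and 1.76, 1.70 and 1.76 in oe-NC samples, without overlap between the groups. The exact two-sided permutation test gave p = 0.1, the smallest value possible, and 0.2 after adjustment over the 4 ratios examined. This ratio, like the kinase ratios below, was chosen after the values were seen and is given as a description.

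Stat4, at chr1:52026307-52151423 (plus strand), is known for IL-12 signaling in T and natural killer cells. It had 2, 7 and 7 counts in oe-AQP1 and 0, 3 and 3 counts in oe-NC samples, and a difference was not detectable at this depth. On the opposite strand its exons share 2649 bases with the long noncoding gene Gm31812, which averaged 39.5 counts. Whether the counting used strand is not stated, so reads within these shared bases cannot be assigned to either gene with certainty. Overlaps of other members were short or involved genes with few counts. Stat3 and Stat5a share 142 exonic bases on opposite strands, Stat6 and Nab2 share 77, and Jak1 shares 1950 with Raver2, which averaged 6.50 counts.

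Jak1, the kinase used by interferon and IL-6 family receptors alike, lies at chr4:101008838-101122487 (minus strand). It measured 141, 148 and 147 CPM in oe-AQP1 samples and 153, 159 and 158 CPM in oe-NC samples. The groups did not overlap, as in 23.8% of all genes tested in this direction, and the gap between them was small. Jak1 fell to 145 ± 3.46 CPM from 157 ± 3.14 CPM (SD, n = 3), with a log2FC of -0.11 (SE 0.04, 95% interval -0.20 to -0.03, limma-voom FDR = 0.0457). This call was close to the threshold and was lost under several other settings, with an FDR of 0.113 by DESeq2 and one just past the threshold by edgeR's quasi-likelihood test, while the log2FC stayed between -0.13 and -0.09. It was also lost when any 1 of the samples other than oe-NC replicate 1 was left out (FDR from 0.0986 to 0.184).

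Jak2, the kinase of the growth hormone and erythropoietin receptors, lies at chr19:29228677-29290505 (plus strand). Its levels were 27.3, 26.9 and 26.4 CPM in oe-AQP1 and 22.01, 26.9 and 25.6 CPM in oe-NC samples. The groups overlapped, and the lowest value was that of oe-NC replicate 1. The log2FC of Jak2 was 0.12 (95% interval -0.05 to 0.29, limma-voom FDR = 0.260), and 0.04 without that replicate.

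Tyk2 pairs with JAK1 at the type I interferon receptor and lies at chr9:21015363-21042689 (minus strand). It was present at 23.5, 24.4 and 22.6 CPM in oe-AQP1 and at 29.1, 23.3 and 24.0 CPM in oe-NC samples. Again oe-NC replicate 1 was the extreme sample, here the highest, and the other oe-NC samples lay within the range of oe-AQP1. Tyk2 had a log2FC of -0.11 (95% interval -0.30 to 0.08, limma-voom FDR = 0.374), and of -0.01 without oe-NC replicate 1. The intervals of Jak2 and Tyk2 were the widest of the 8 members tested and allowed changes of up to 22.2% upward and 18.9% downward, respectively.

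**Figure D2:**
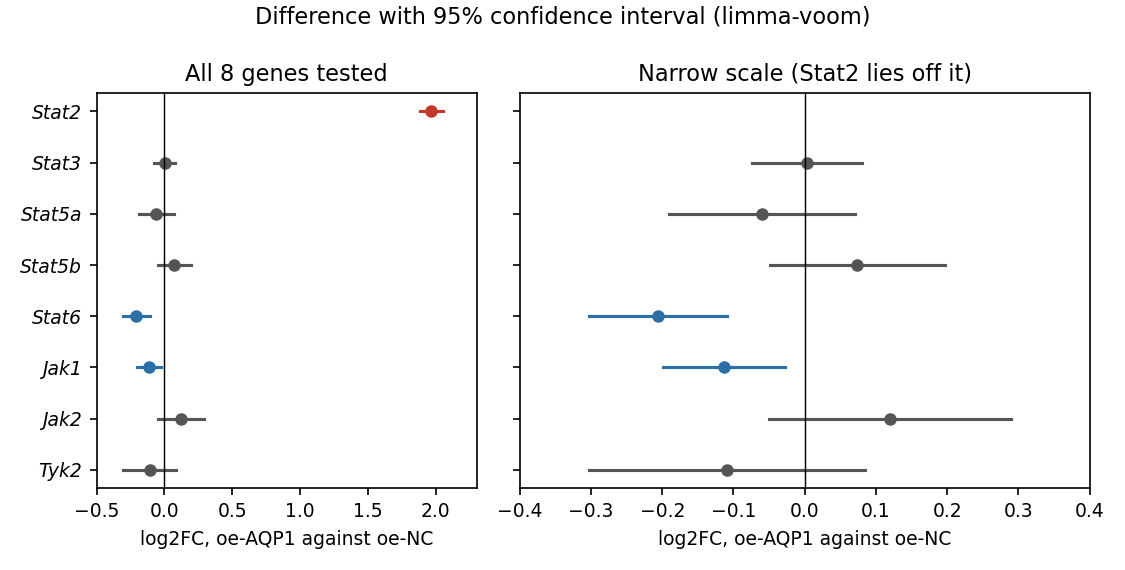
Points are the log2FC of oe-AQP1 against oe-NC for the 8 members tested and bars the 95% confidence intervals of limma-voom. The left panel holds all 8 genes, and the right panel repeats them on a narrow scale that leaves Stat2 out. Red marks an FDR under 0.05 and higher (Stat2 at 1.97), blue an FDR under 0.05 and lower (Stat6 at -0.21, Jak1 at -0.11), and grey genes whose FDR was not under 0.05.

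**Figure D3:**
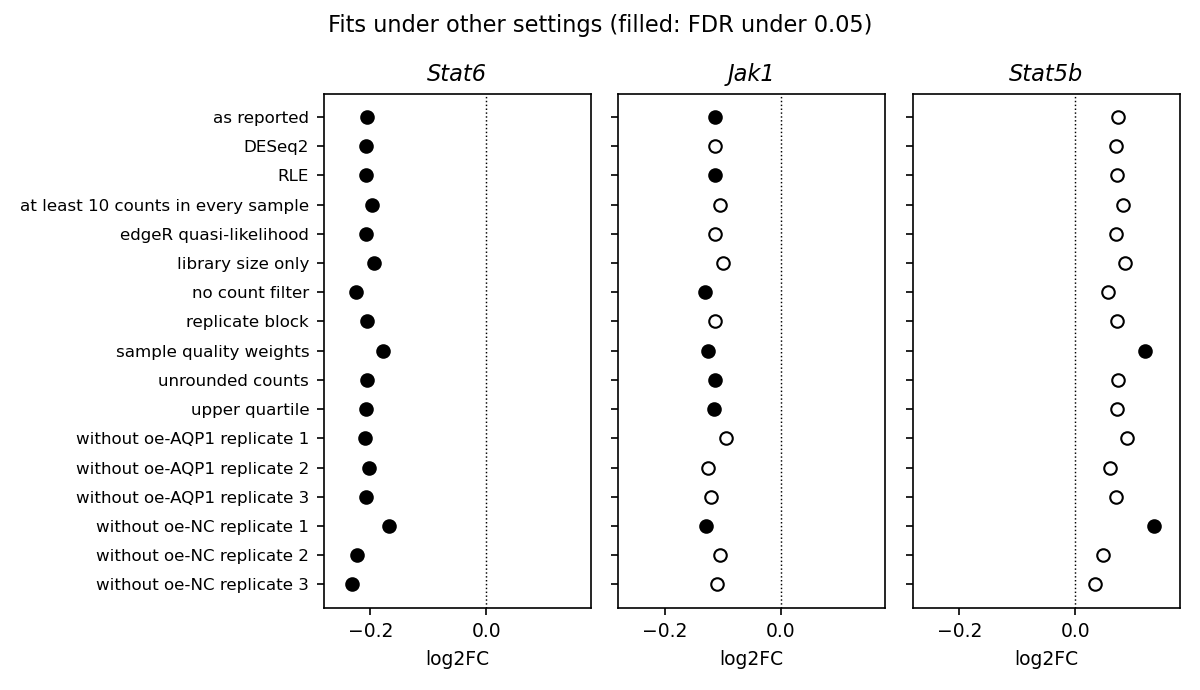
The log2FC of Stat6, Jak1 and Stat5b is plotted under the settings named on the vertical axis, filled where the FDR was under 0.05. Stat6 is filled throughout, Jak1 keeps its side of 0 but is open in 10 of the 17 fits, and Stat5b is filled only with sample quality weights (log2FC 0.12) and without oe-NC replicate 1 (log2FC 0.13).

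Levels of different genes were compared as CPM per kb of the union of a gene's exons. In oe-NC cells Stat3 came first at 22.1 ± 0.245 CPM per kb (SD, n = 3), followed by Stat6 at 19.6 ± 0.914, Stat2 at 18.2 ± 0.547, Jak1 at 14.5 ± 0.290, Stat5b at 13.3 ± 0.997, Stat5a at 6.40 ± 0.443, Jak2 at 3.92 ± 0.398, Tyk2 at 2.91 ± 0.367 and Stat4 at 0.0113 ± 0.00991. The sample ranges of Jak1 and Stat5b overlapped, and those of other neighbors in this order did not. In oe-AQP1 cells Stat2 moved to the first place at 71.0 ± 1.24 CPM per kb, ahead of Stat3 at 22.2 ± 0.365. The order depended in part on the length used. With the mean length of coding transcripts, Stat3 (37.8 CPM per kb) and Stat6 (36.3) overlapped in oe-NC cells, Jak1 (28.1) came before Stat2 (25.7), and Tyk2 (6.27) before Jak2 (4.81). Stat2 was first in oe-AQP1 cells by either length.

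**Figure D4:**
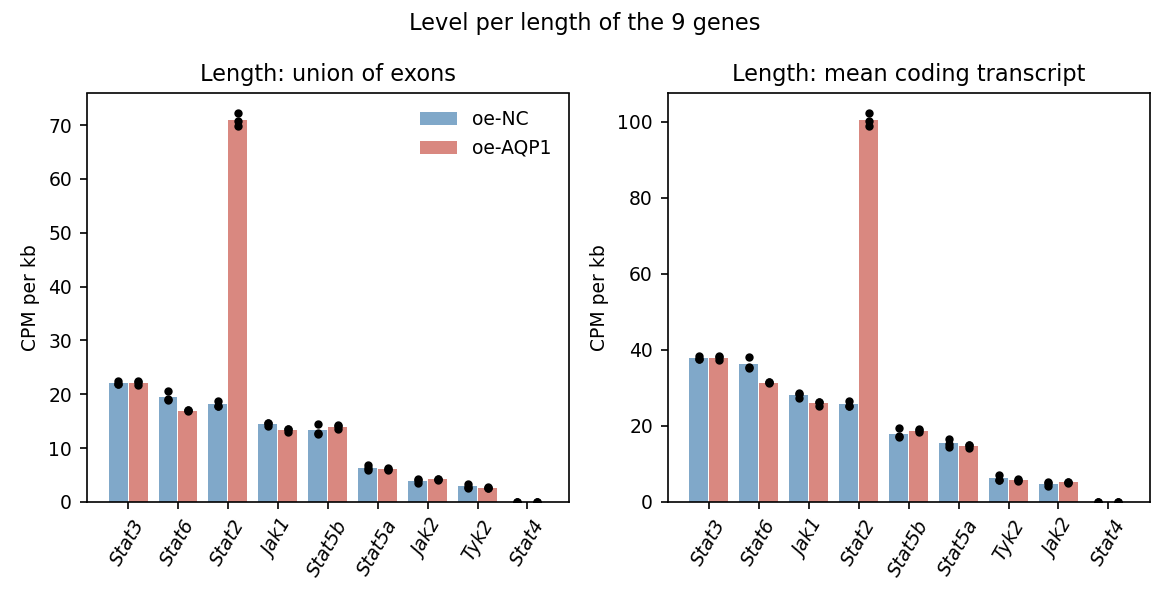
Bars are mean CPM per kb of the 9 genes in oe-NC (blue) and oe-AQP1 (red) samples and points the 3 samples of a group, with the union of exons as length on the left and the mean coding transcript on the right. Genes are ordered by their level in oe-NC cells. Stat2 stands at 71.0 CPM per kb in oe-AQP1 against 18.2 in oe-NC cells on the left, and Stat4 is close to 0.

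As a share of the summed CPM per kb of the 6 STAT members, Stat2 made up 54.5%, 54.8% and 54.2% in oe-AQP1 and 22.6%, 22.9% and 23.0% in oe-NC samples. The difference was 31.7 percentage points (exact two-sided permutation test, p = 0.1, the smallest value that 3 against 3 samples can give). The shares of the other well-counted STAT members were correspondingly smaller in oe-AQP1 samples. Among the 3 JAK members, Jak1 held 65.9% ± 0.813 in oe-AQP1 and 68.0% ± 0.370 in oe-NC cells (SD, n = 3, exact permutation p = 0.1). Jak2 held 20.9% ± 0.559 and 18.4% ± 1.60 (exact permutation p = 0.1), a difference of 2.52 percentage points that was 1.62 without oe-NC replicate 1. With the mean coding transcript length, the samples of the groups overlapped in the Jak1 share (exact permutation p = 0.2). Tyk2 held 13.2% ± 0.403 and 13.7% ± 1.94 (exact permutation p = 0.9). The count ratio of Jak2 to Jak1 was 0.193, 0.182 and 0.180 in oe-AQP1 samples and 0.143, 0.168 and 0.162 in oe-NC samples. The groups again did not overlap in it (exact permutation p = 0.1, adjusted p = 0.2). The count ratio of Jak2 to Tyk2 overlapped, at 1.16, 1.10 and 1.17 in oe-AQP1 and 0.755, 1.16 and 1.07 in oe-NC samples. Its difference of 0.152 was 0.0334 without oe-NC replicate 1. The ratio of Tyk2 to Jak1 overlapped as well, with means of 0.162 in both groups.

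The genes whose pattern over the 6 samples was nearest to each member were found by the root mean square distance between log2 CPM values centered on each gene's own mean, among 11751 protein-coding genes with a mean of at least 10 counts. Those nearest to Stat2 were Irf7, the interferon regulatory factor of the type I response, at a distance of 0.00980, Oas3, an antiviral oligoadenylate synthetase, at 0.0259, and Sp140l2 at 0.0416. Their log2FC values were 1.97, 1.95 and 1.92. Because the neighbors of each member were picked by their values in these 6 samples, likeness in log2FC and in passing follows from the choice. Stat6 was nearest to the translation initiation factor gene Eif4g1, to Ybx1 and to the phosphofructokinase gene Pfkm, with log2FC values of -0.20, -0.22 and -0.21. Jak1 was nearest to Appl1, Cul4b and Sec63, with log2FC values of -0.10, -0.10 and -0.13, of which Sec63 alone passed the threshold. None of the neighbors of Stat3, Stat5a, Stat5b, Jak2 and Tyk2 passed it, among them Arhgap35 for Stat3, Sphk2 for Stat5a, Poldip3 for Stat5b, Gpcpd1 for Jak2 and Ddr1 for Tyk2.

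Ligands of receptors that use Janus kinases were mostly at or near 0. Of 55 listed genes, 38 had at most 3 counts in every sample, 22 of them none, and 15 were tested, of which 6 were higher, 2 lower and 7 did not pass. Over all genes tested the shares were 16.0% higher and 16.6% lower. Ifnb1, encoding interferon beta, had 264, 288 and 277 counts in oe-AQP1 and 3, 6 and 5 counts in oe-NC samples (log2FC = 5.72, SE 0.30, limma-voom FDR = 2.60e-07). Ifna4 had 34, 23 and 23 counts in oe-AQP1 samples and none in oe-NC samples, at least 8.54-fold higher against 3 counts per library. Il6, the ligand of the gp130 receptor that signals through STAT3, had 43, 43 and 41 counts against 1, 1 and 0. Clcf1, a cytokine of the same family, and Il23a, a subunit of IL-23, were lower, with log2FC values of -0.46 and -0.35. The call of Il23a (limma-voom FDR = 0.0444) was lost with DESeq2, library size only, no count filter or the replicate block, and when any 1 sample was left out. The median log2FC of the ligands tested was 0.34, also with Ifna4 at its lower bound, beside 0.0023 over all genes tested. Where all samples had to reach 10 counts, 2 ligands were called higher.

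Of 42 receptor chains, 22 were tested, and 6 were higher, 7 lower and 9 did not pass, with a median log2FC of -0.13. These counts stand beside 16.0% higher and 16.6% lower over all genes tested. The largest differences were those of Il22ra1, a chain of the IL-22 receptor (log2FC = 2.06), Ghr, the growth hormone receptor (1.64), Il23r (-1.75, at most 19 counts) and Lifr, the leukemia inhibitory factor receptor (-1.14). Il15ra was higher (0.55) and Epor, the erythropoietin receptor, lower (-0.49). The chains on which JAK1, TYK2 and JAK2 sit in interferon signaling were looked up after the values had been seen. Ifnar1, the TYK2-bound chain of the type I receptor, had 1198, 1303 and 1242 counts in oe-AQP1 and 1328, 1134 and 1309 counts in oe-NC samples (log2FC = -0.08, limma-voom FDR = 0.240). After scaling, these were 60.6, 59.3 and 60.4 CPM against 67.7, 62.0 and 61.4 CPM. All oe-AQP1 samples lay below all oe-NC samples, as in 23.8% of all genes tested, but Ifnar1 did not pass the threshold. Ifnar2, the JAK1-bound chain, was higher (log2FC = 0.27, limma-voom FDR = 0.00134). Of the type II receptor chains, Ifngr1 was lower (-0.21) and Ifngr2 higher (0.37).

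All inhibitors and phosphatases listed passed the count filter, and of these 18 genes 5 were higher, 1 lower and 12 did not pass (median log2FC 0.05). For all genes tested, 16.0% were higher and 16.6% lower. Socs1, which blocks Janus kinases directly, was measured at 11.1 ± 0.899 CPM in oe-AQP1 and 3.39 ± 1.13 CPM in oe-NC cells (SD, n = 3, log2FC = 1.75). Usp18, which restrains signaling at the type I interferon receptor, reached 459 ± 1.25 against 137 ± 2.80 CPM (log2FC = 1.74). Socs2, a target and inhibitor of STAT5 signaling, was higher by a log2FC of 0.26, and the phosphatase gene Ptpn6 lower by -0.26. The call of Ptpn6 (limma-voom FDR = 0.0401) was the only decrease of this list and was lost with DESeq2, library size only, no count filter or the replicate block, and without oe-AQP1 replicate 1 or 3 or oe-NC replicate 2 or 3.

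Among 13 partners and transport factors of STAT proteins, 4 were higher, 1 was lower and 8 did not pass (median log2FC 0.07). The shares over all genes tested were 16.0% higher and 16.6% lower. Irf9, the DNA-binding partner of STAT2 in ISGF3, had 2925, 3260 and 3089 counts in oe-AQP1 and 1857, 1665 and 1994 in oe-NC samples, with no overlap and a log2FC of 0.68 (SE 0.04, limma-voom FDR = 4.31e-07). Such a separation with oe-AQP1 higher was shown by 23.5% of all genes tested. The 95% interval of the log2FC of Irf9, 0.59 to 0.76, lay below that of Stat2. Nmi, the N-myc and STAT interactor, had a log2FC of 1.68. Ncoa1, a coactivator, was higher by 0.15, and Kpnb1, the importin beta of nuclear import, was lower by -0.23. Without oe-NC replicate 1, 7 of the 13 were higher, and without oe-AQP1 replicate 1, 2 or 3 or oe-NC replicate 3, 2 were. Calls over all genes tested moved as well, from 2481 higher with all samples to 3125 without oe-NC replicate 1. Without oe-AQP1 replicate 1, 2 or 3 or oe-NC replicate 3 they were 1934, 1856, 1869 and 2174.

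Of the target gene lists, that of ISGF3 had 23 of 23 genes higher, all as DEGs, with a median log2FC of 1.96 and a range of 1.11 to 5.91, where 4.39% of all genes tested were DEGs in this direction. Earlier results of these data had already shown interferon-stimulated genes to be higher, and the list is no independent evidence. The largest values were those of Mx1 (log2FC = 5.91), Ifit3 (4.85) and Rsad2 (4.02), which encode antiviral proteins. With its log2FC of 1.97, Stat2 lay close to the median of these genes. An ISRE core was present in the promoter windows of 9 of the 17 genes of this list that had one (52.9%). It was also present in 13 of 43 ligand genes (30.2%), beside 3.99% of all genes with a window. Of the 13 ligand genes, 11 were type I interferon genes, among which Ifna4 alone had enough counts to be tested. An ISRE core was likewise present in the STAT3 targets Saa3 and Vegfa of 15, and in Socs1 of 10 inhibitors. None was found for 35 receptor genes, 12 partner genes (Irf9 among them), 7 STAT5 targets or 7 STAT6 targets.

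Target lists of the other STATs were mixed or small. The counts here stand beside 16.0% higher and 16.6% lower over all genes tested. Of 17 STAT3 targets tested, 4 were higher, 4 lower and 9 did not pass, with a median log2FC of 0.00. Higher were Saa3, an acute phase protein gene (2.50, at most 32 counts), Fos (0.54) and Junb (0.44) among others, and lower were Lcn2 (-0.73), the survival gene Bcl2l1 (-0.44) and Vegfa (-0.30) among others. Of 9 STAT5 targets tested, Socs2 was higher (0.26) and Igf1 (-1.16, at most 17 counts), Pim2 (-0.52) and Bcl2l1 lower. Of 12 STAT6 targets 3 could be tested, and the chemokine gene Ccl17 (-1.31) and the transglutaminase gene Tgm2 (-0.28) were lower. Lists share genes, since 7 of the 10 STAT5 targets also stand in another list. In the KEGG JAK-STAT pathway without the members, 21 of 87 genes tested were higher, 16 lower and 50 did not pass (median log2FC 0.03). Beside genes named above, the rule singled out Cdkn1a, the cell cycle inhibitor p21, with a log2FC of -1.27.

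**Figure D5:**
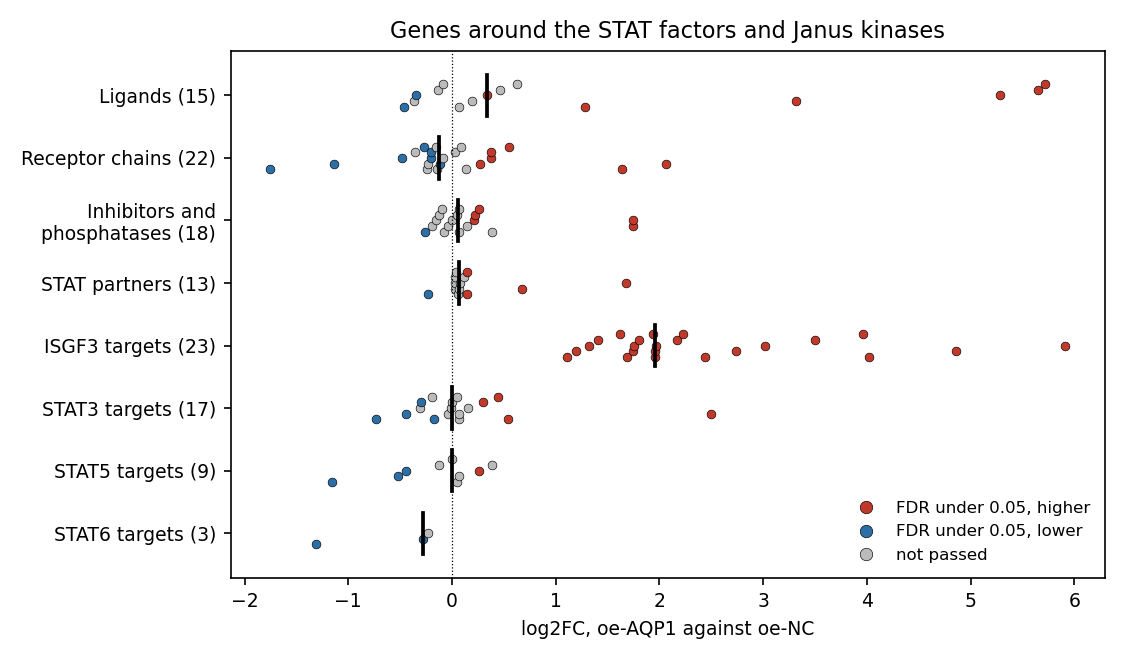
Each point is the log2FC of a tested gene of the list named on the left, with the number tested in brackets, colored where the FDR was under 0.05 (red higher, blue lower) and spread vertically for legibility. Black bars are list medians, which lie at 1.96 for ISGF3 targets and between -0.28 and 0.34 for the other lists. The fitted values of Ifna4 and Il6 among the ligands depend on the prior count, since oe-NC samples had at most 1 count.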

How the data were processed

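RNA of 3 oe-AQP1 and 3 oe-NC samples was sequenced by the authors from paired-end TruSeq libraries. They deposited expected counts per gene, not scaled between samples, and each group's mean in 2 further columns, left unused here. The methods state alignment to GRCm39, whereas the submitters' processing notes name GRCm38 and mm10 with fastp, HISAT2, Subread and featureCounts. Which counter gave fractional counts is not given in the sources used here, nor is strandedness. The authors left interferon-stimulated and viral defense genes out of their own comparison, with the stated aim of reducing transfection artifacts. Inflammatory mediators that they held relevant to cancer stayed in. Here all of these genes were kept.

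Expected counts were rounded, filtered by filterByExpr with the group (15522 genes kept), scaled by TMM and tested by limma-voom, the study's own method (limma 3.58.1, edgeR 4.0.16, R 4.3.3). P-values were adjusted by Benjamini-Hochberg over all genes tested. CPM uses the TMM-scaled library size. With simulated counts of the 6 samples, 95% of 200 changed genes were recovered and 15 others called among 15439 tested. This share was not split by log2FC. Recovery at values as small as those of Stat6 and Jak1 was not tested. At totals of 18385714.02 to 21920898.67, a gene needed about 10 counts in the samples of a group to be tested. Reads without molecular identifiers are not independent molecules, so a lower-bound fold covers counting error only.

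Positions and lengths are those of GENCODE M39 on GRCm39, in which 78168 of 78298 genes were found. Promoter windows are RefSeq's on GRCm38.p6. Identity was computed on coding sequences of the canonical transcripts (Biopython 1.88), since proteins were not used here. Of 236 listed symbols, 1 was an alias of another and had no row of its own.

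Genes named in the text were all members, Aqp1, the up to 3 largest increases and decreases of each list among genes with an FDR under 0.05, groups that did not overlap and, in the group with more, 10 or more counts on average, the 3 nearest patterns of each member, and marker genes. Exceptions are named where they occur. The members and lists were chosen with earlier results of these data known. Alternatives tried were DESeq2 1.42.0, the quasi-likelihood test of edgeR, sample quality weights, 3 scalings, 2 count filters, a replicate block, unrounded counts, another gene length and leaving out each sample. Summing Stat5a and Stat5b, and the count ratios, were added after seeing the data.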

Additional observations from a re-analysis of the deposited data

How the results depend on the processing

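Stat2 (log2FC 1.95 to 1.99 when each sample was left out) and Stat6 (-0.23 to -0.17) kept their direction and passed the threshold under all 16 alternatives. Jak1 stayed lower in log2FC but no longer passed with DESeq2 (-0.11), at least 10 counts in every sample (-0.10), edgeR's quasi-likelihood test (-0.11), library size only (-0.10) and the replicate block (-0.11), which left 1 member lower in each. When each sample was left out its log2FC was -0.13 to -0.094, with 1 to 2 members lower. Stat5b passed with sample quality weights (0.12), giving 2 members higher, and ranged from 0.034 to 0.13 when each sample was left out, with 1 to 2 members higher. Stat3, near 0, changed sign without a count filter (-0.015) and ranged from -0.0082 to 0.016. Stat5a ranged from -0.11 to -0.0051 and changed sign when summed with Stat5b (0.026). The causes were not tested.

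Of the lists, ligands had 2 higher with at least 10 counts in every sample, where fewer genes are tested. They had 1 lower with DESeq2, library size only, no count filter and the replicate block. Inhibitors had 3 higher without a count filter and 0 lower with DESeq2, library size only, no count filter and the replicate block. STAT5 targets had 2 higher with sample quality weights, and STAT6 targets 1 higher without a count filter. When each sample was left out, the number lower was 4 to 6 for receptor chains, 1 to 2 for ligands, 0 to 2 for inhibitors and 9 to 16 for the KEGG pathway, and the number higher was 2 to 7 for partners and 1 to 2 for STAT5 targets. Over all genes tested, the number higher was then 1856 to 3125 and the number lower 1745 to 3331. With sample quality weights these numbers were 3115 and 3315.

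With the mean coding transcript length, levels in oe-NC cells were 25.7 (Stat2), 37.8 (Stat3), 15.4 (Stat5a), 17.9 (Stat5b), 36.3 (Stat6), 28.1 (Jak1), 4.81 (Jak2) and 6.27 (Tyk2) CPM per kb, and the share of Stat2 differed by 30.1 percentage points. The difference in the Tyk2 share ranged from -1.14 to 0.651 percentage points and that in the Tyk2 to Jak1 count ratio from -0.00891 to 0.0131 when each sample was left out, with a sign change without oe-NC replicate 1 in both and, for the ratio, also without oe-AQP1 replicate 3 (0.0032).

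Same-numbered samples did not deviate together (correlations of 0.00911, -0.00440 and -0.0677), so the numbers were not taken to pair samples. With the replicate block, 2346 genes were higher and 2479 lower, against 2481 and 2569 without it. Stat4 and most ligands had too few counts to be tested, and 3 samples per group limit an exact test to p = 0.1.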
